A study of Mus musculus with 21 samples.

Results

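The genes described here are named for the cytosolic factors that start and extend protein chains on the ribosome. They were measured by bulk poly(A) RNA sequencing in IgA+ plasma cells (PCs) of the mouse small intestine. Members were the protein-coding genes whose symbols begin with Eif or Eef followed by a digit from 1 to 6, leaving out the eIF4E-binding proteins (Eif4ebp) and the eIF2 kinases (Eif2ak), which are treated separately. Of 60 such genes, 58 had a total of at least 10 counts over the 21 libraries and were kept, among 20256 genes tested. The 2 left out, Eef1a2 and Eif4e1b, had totals of 1 and 0 counts. Not all 58 members are translation factors themselves. Eef1akmt1, Eef1akmt2, Eef1akmt4 and Eef2kmt are named for methyltransferases of eEF1A and eEF2. Eef2k encodes a kinase, Eef1e1 a multisynthetase component and Eif4enif1 a shuttling protein of eIF4E.

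Each library is labelled as CD138+ IgA+ PCs sort-purified from the small intestinal lamina propria of 1 mouse on the C57BL/6 background, killed at lights-on (zeitgeber time, ZT, 0) or lights-off (ZT12) of a 12 h to 12 h light cycle with food always present. The study describes cohoused littermates matched for age and sex. There were 6 control mice at ZT0 and 6 at ZT12 (labelled Mb1Cre-/- x Arntlfl/fl), and 4 knockout mice at ZT0 and 5 at ZT12 (labelled Mb1Cre+/- x Arntlfl/fl). All mice therefore carried the floxed Arntl alleles. Arntl encodes BMAL1, a transcription factor of the core circadian clock, and Cre sat in Mb1 (Cd79a), a gene of the B cell receptor, so that deletion took place from early in the B cell lineage and not in PCs alone. Groups were read from the sample titles, because in 8 of 9 knockout samples the genotype entry is that of controls. Neither age nor sex is given per sample, though sex-specific transcripts described below show mice of both sexes in every group.

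Translation begins when eIF2 brings the initiator tRNA to the small ribosomal subunit, eIF3 scaffolds that assembly, and the eIF4 factors bind the mRNA cap and unwind the leader. eIF1, eIF1A and eIF5 control the choice of start codon, and eIF5B joins the large subunit. During elongation eEF1A delivers aminoacyl-tRNA, the eEF1B subunits recharge it with GTP, and eEF2 moves the ribosome by one codon. PCs devote most of their protein synthesis to antibody. In many mRNAs for ribosomal proteins and elongation factors the first bases form a pyrimidine tract (the 5′ terminal oligopyrimidine motif), which is known to make their translation sensitive to mTOR.

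To show what is annotated at the starts of the genes that the results turn on, 30 bases around the RefSeq transcript start (15 before it and 15 from it on, GRCm38.p6, 5′ to 3′ on the gene's strand) are given for the called members that have an entry, and then for 3 of the 7 eIF3 genes with an entry that were not called. Of these 7, Eif3l alone held the run described next, and Eif3a and Eif3b are shown as examples of the 6 without it. Capitals mark the longest run of C or T, at least 6 bases long and beginning with C. Eef1a1 lies at chr9:78481710-78481739 on the minus strand, Eef2 at chr10:81176616-81176645 on the plus strand, Eef1b2 at chr1:63176816-63176845 on the plus strand, Eif3f at chr7:108934400-108934429 on the plus strand, Eif3k at chr7:28981874-28981903 on the minus strand and Eif3m at chr2:105017013-105017042 on the minus strand.
Eef1a1: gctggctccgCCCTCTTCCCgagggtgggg
Eef2: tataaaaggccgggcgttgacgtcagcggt
Eef1b2: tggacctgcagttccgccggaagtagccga
Eif3f: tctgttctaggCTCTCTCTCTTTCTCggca
Eif3k: aaaacaaccggcgctggtgctgaaagcgcc
Eif3m: ttttccggtcggcgtgtttctggatcggag
Eif3a (chr19:60790679-60790708, minus strand): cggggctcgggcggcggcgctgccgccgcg
Eif3b (chr5:140419290-140419319, plus strand): ctagcggcgcgcggtgacttctgggagtcg
Eif3l (chr15:79075208-79075237, plus strand): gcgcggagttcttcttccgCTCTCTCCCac
A run of this kind was present at the annotated start of Eef1a1 and Eif3f, and also at that of Eif3l, which was not called. RefSeq windows were at hand for 46 of the 58 members, in 60 windows because some genes have several starts. The run was found in 15 of these 60 windows (25.0%), in 23.6% of the windows of all genes tested and in 22.5% of all 32841 windows. On the opposite strand it was found in 9 member windows and in 25.5% of all windows. Annotated starts can lie some bases from the start used in a given cell, so that a window without a run says nothing of the mRNA.

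The same table was searched for the E-box CACGTG, the sequence bound by BMAL1 with its partner, over the whole window of 250 bases before to 50 bases after the start. It reads the same on both strands. It was present in 15 of the 60 member windows (25.0%), against 9.18% of the windows of all genes tested and 7.15% of all windows. The 13 members holding it were Eef1akmt4, Eef2, Eef2k, Eif1b, Eif3a, Eif3f, Eif3k, Eif4a1, Eif4e, Eif4g1, Eif4h, Eif5a and Eif5a2. Among the called members with a window it was found for Eef2, Eif3f and Eif3k. Several windows of one gene overlap, so the windows are not independent, and these shares are a description of the letters only.

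Libraries held 14471018 to 22785835 counts, of which 51.5 to 63.6% fell on immunoglobulin (Ig) genes, and 109529 to 179818 counts per library fell on the 58 members. All 8 plasma cell markers were present in every library, and their summed level was 281773 to 593591 CPM (counts as a rate per library size, with the size adjusted by TMM factors). The summed level of 7 markers of other B cells was 12.6 to 29.4 CPM, that of 7 T cell markers 10.8 to 28.4 CPM, that of 6 myeloid markers 13.6 to 72.0 CPM and that of the 9 epithelial markers tested 55.0 to 769 CPM. Arntl, the targeted gene, had 6.83 to 8.36 CPM in control mice at ZT0 and 4.08 to 6.47 CPM in knockout mice at ZT0, with no overlap, and 4.00 to 5.56 and 3.11 to 4.93 CPM at ZT12, with overlap; neither difference was called (adjusted p = 0.926 and 0.678). Nr1d2, a clock gene and a known target of BMAL1, was called lower in knockout mice at both times (log2 fold change -2.24 ± 0.14 and -2.55 ± 0.13 SE), and so was Cd79a, which carries Cre (-1.21 ± 0.15 and -1.18 ± 0.14).

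Several libraries stood apart. The library of control ZT12 mouse 2 had the highest Ig share (63.6%), the highest share of ribosomal protein transcripts (5.59% of counts outside Ig genes) and the lowest TMM factor (0.722). The libraries of knockout ZT0 mouse 3 and knockout ZT12 mouse 5 held RNA of both Xist, a transcript of the inactive X chromosome (428 and 344 CPM), and of Y-linked genes, Eif2s3y among them. Whether these libraries hold cells or RNA of more than 1 mouse was not tested. The counts of members that passed in comparisons with knockout mice are therefore also given without these 2 libraries. Every group held libraries with high Xist and libraries with Y-linked RNA. Each library had an Xist level of 3.51 CPM or less, or of 329 CPM or more. The high libraries were mice 1, 2 and 3 of control ZT0 and mice 1, 2 and 5 of control ZT12. In knockout mice they were mice 1 and 3 at ZT0 and mice 1 and 5 at ZT12, which include the 2 mixed libraries. In bulk samples fewer cells of a type and less RNA per cell cannot be told apart.

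By level, elongation factors came first. On a scale of CPM per kilobase of gene length, averaged over the 21 mice, Eef1a1 stood at 946 and Eef2 at 391 CPM per kb, followed by Eif1 (112), Eef1g (77.3) and Eif5a (74.7), the factor that carries hypusine and helps ribosomes past difficult peptide bonds. The other 53 members lay between 0.297 CPM per kb for Eif5a2, the second eIF5A gene, and 59.5 CPM per kb for Eef1b2. Within eIF3 the levels ran from 2.60 CPM per kb for Eif3j2 to 51.2 CPM per kb for Eif3a, although the subunits act in one complex. The length used is the one deposited with the counts, which for 52 of the 58 members equals the union of all annotated exons, so that genes with retained introns or long untranslated ends, such as Eif3e (6719 bases), read lower on this scale than their main mRNA would.

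**Figure D1:**
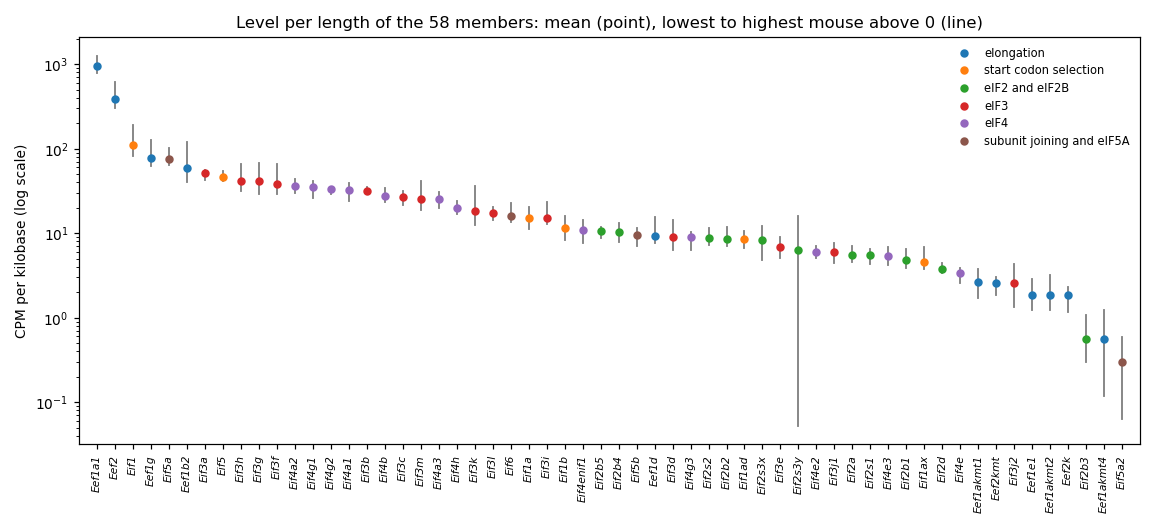
Level of each of the 58 members in CPM per kilobase (log axis), ordered from highest to lowest. Points are means over 21 mice coloured by role and lines run from the lowest to the highest mouse above 0. Eef1a1 (946) and Eef2 (391) lie above every other member, and Eif2s3y has the widest range because it is Y-linked.

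Eef1a1 and Eef2 together took 0.685 to 1.03% of the counts outside Ig genes and the other 56 members 0.886 to 1.05%. In control mice at ZT0 the summed share of all 58 members was nearly constant, 1.58 to 1.64% with a median of 1.60%. In control mice at ZT12 it was 1.73 to 2.08% with a median of 1.87%, above every ZT0 value. In knockout mice it was 1.60 to 1.75% at ZT0 and 1.76 to 1.96% at ZT12, again without overlap. These shares are given as levels, with no test. Read as a share of all counts, Ig genes included, the groups overlapped: 0.740 to 0.794% and 0.707 to 0.964% in control mice, and 0.702 to 0.810% and 0.780 to 0.896% in knockout mice.

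**Figure D2:**
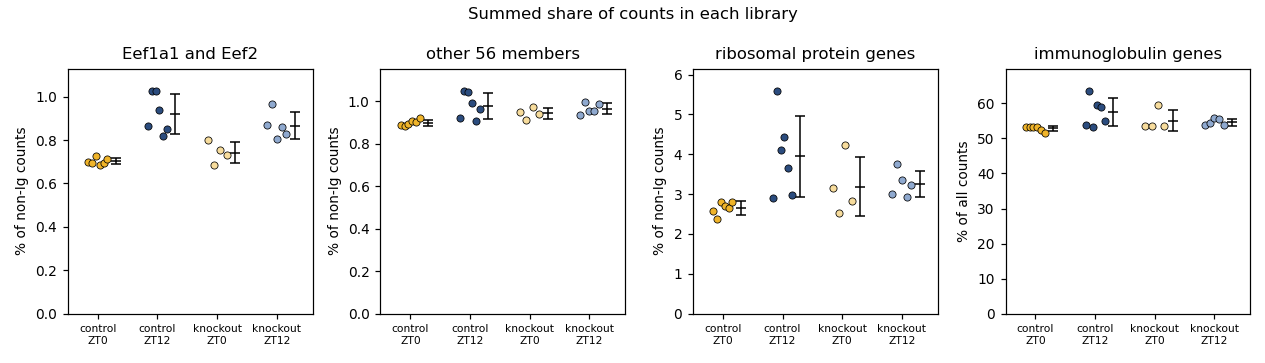
Summed share of counts in each library (points, one per mouse; bar and whiskers, mean ± SD) for Eef1a1 with Eef2, for the other 56 members, for 81 ribosomal protein genes (each as % of counts outside Ig genes) and for Ig genes (% of all counts), in control and knockout mice at ZT0 and ZT12. The control ZT0 mice lie closest together in every panel, and the ribosomal share is highest in control ZT12 mouse 2 (5.59%).

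The comparison of ZT12 with ZT0 in control mice asked which of these transcripts differ with time of day when the clock gene is intact. At ZT12, 8 of the 58 members rose (edgeR quasi-likelihood test, Benjamini-Hochberg adjusted p under 0.05 over all 20256 genes) and none fell. They were the elongation factor genes Eef1a1, Eef2 and Eef1b2 and the eIF3 subunit genes Eif3e, Eif3f, Eif3h, Eif3k and Eif3m, with changes of 1.32-fold to 1.73-fold. The 8 members called are 13.8% of the list, where 1.73% of all genes were called in either direction and 0.948% as higher. At an unadjusted p under 0.05 there were 26 members, 25 of them higher, where 18.1% of all genes passed in either direction and 9.19% as higher. Many of the genes tested have few counts. With a stricter low-count filter (filterByExpr, 13717 genes), 10 members (17.2%) and 3.35% of all genes were called. At an unadjusted p under 0.05, 48.3% of members and 22.1% of all genes then passed. The median log2 fold change over the 58 members was 0.16, with 44 above 0, and over all genes it was 0.01. By role the median was 0.34 for eIF3, 0.23 for elongation, 0.20 for eIF2 and eIF2B, 0.15 for start codon selection, 0.10 for eIF4 and 0.04 for subunit joining with eIF5A. The elongation role includes Eef1e1 and enzymes that act on the factors, and the role of eIF2 and eIF2B includes Eif2a and Eif2d. For 10 members every ZT12 mouse lay above every ZT0 mouse, where this held for 0.745% of all genes. Scaled by library size only, 3 members were called (2.20% of all genes were), 13 passed an unadjusted p of 0.05 (22.4% of members and 22.8% of all genes), and the median was -0.06 over the members and -0.20 over all genes. With only the control mice in the fit 1 member was called (0.203% of all genes).

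The counts also moved with single libraries, for members and for all genes together. They came to 2 members (Eef2 and Eif3f) and 31 genes without control ZT0 mouse 2, to the same 2 members and 37 genes without control ZT12 mouse 4, and to 3 members and 42 genes without control ZT0 mouse 1. They came to 11 members both without control ZT12 mouse 1 (944 genes) and without control ZT12 mouse 6 (687 genes).

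Ig share and ribosomal protein transcripts also differed between these groups. Ig genes took 51.5 to 53.3% of counts in control mice at ZT0 and 53.3 to 63.6% at ZT12. With the Ig share of each library as a covariate, edgeR called none of the 20256 genes. At an unadjusted p under 0.05 there were then 10 members (17.2%), all higher at ZT12, where 8.15% of all genes passed. The epithelial markers summed to 55.0 to 193 CPM at ZT0 and 73.2 to 769 CPM at ZT12 in control mice, and their part in the result was not tested. Of the 81 ribosomal protein genes 45 were called, all higher, with a median log2 fold change of 0.64.

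**Figure D3:**
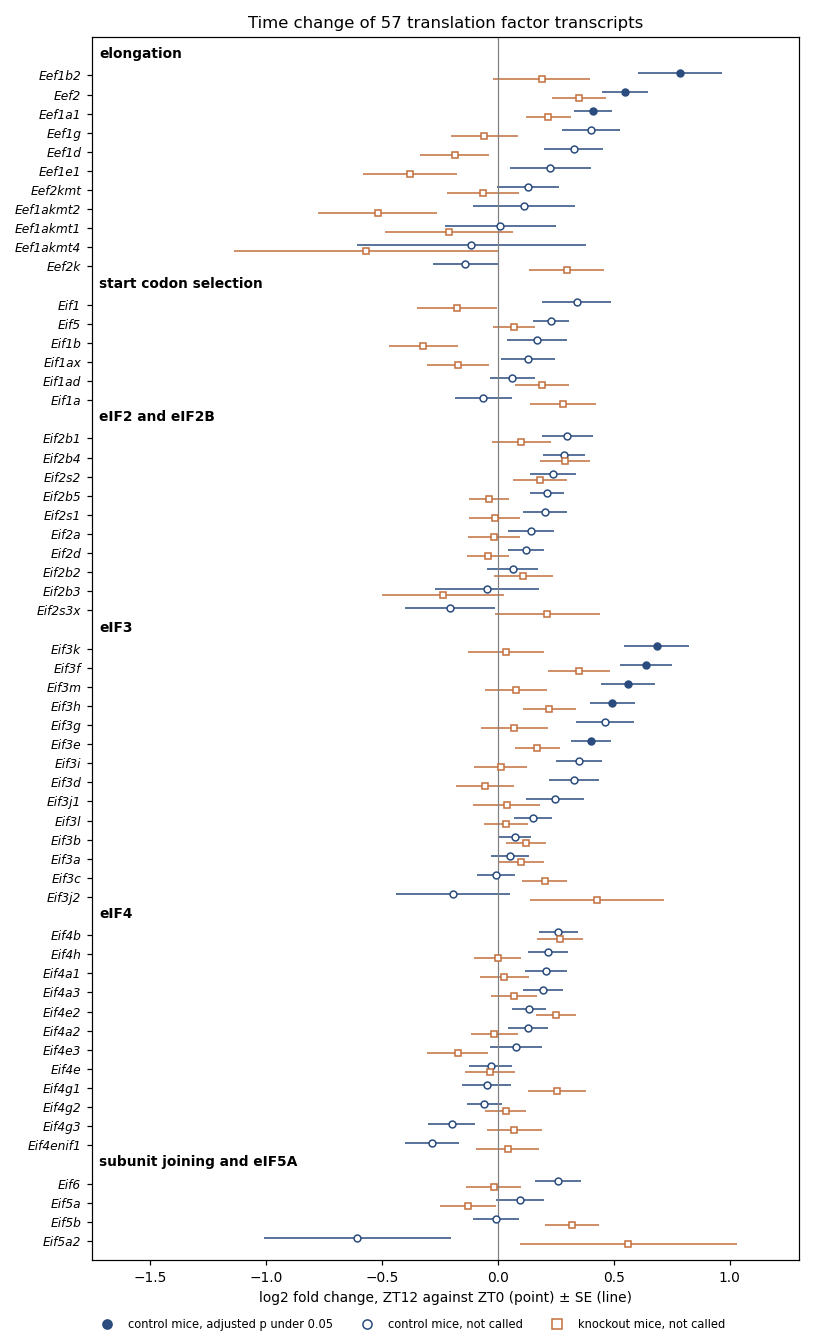
Log2 fold change of ZT12 against ZT0 (point) ± SE (line) for 57 members ordered by role, in control mice (circles, filled where the adjusted p was under 0.05) and knockout mice (squares). The 8 filled circles belong to elongation and eIF3; Eif2s3y is left out because it is Y-linked and its SE is 1.51.

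Among the elongation factors, Eef2, the translocase, had a lowest, median and highest level of 1040, 1086 and 1106 CPM in control mice at ZT0 and of 1321, 1525 and 2036 CPM at ZT12. All ZT12 mice lay above all ZT0 mice, and the log2 fold change was 0.55 ± 0.10 SE (adjusted p = 0.010). Eef1a1, the most abundant member, went from 1962, 2026 and 2118 CPM to 2423, 2656 and 3144 CPM, again with no overlap (0.41 ± 0.08, adjusted p = 0.020). Reads of Eef1a1 are shared with processed copies in the genome, and how such reads were counted is not given in the sources used here.

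Eef1b2, a nucleotide exchange subunit for eEF1A, showed the largest change of the 8 called and also the widest spread. Its levels were 107, 114 and 120 CPM at ZT0 against 126, 188 and 307 CPM at ZT12, a log2 fold change of 0.79 ± 0.18 (adjusted p = 0.036). It lost its call when any one of 9 control libraries was left out. Its partners in the exchange complex were not called. Eef1g had 164, 175 and 180 CPM at ZT0 against 180, 221 and 326 CPM at ZT12, all ZT12 mice higher (0.40 ± 0.13, adjusted p = 0.097), and Eef1d had 50.5, 53.5 and 59.5 CPM and 50.3, 63.7 and 102 CPM with overlap (0.33 ± 0.13, adjusted p = 0.18). The remaining 6 members of this role, none of them an elongation factor itself, were not called. Among them were Eef2k, the kinase that inhibits eEF2 (-0.14 ± 0.14), and the multisynthetase component Eef1e1 (0.23 ± 0.17).

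Of the 14 eIF3 genes, 5 were called and 8 passed an unadjusted p under 0.05, all higher at ZT12. Of all genes, 1.73% were called and 18.1% passed in either direction, and 0.948% and 9.19% did so as higher. Of the 81 ribosomal protein genes, 55.6% were called and 91.4% passed, all higher. Eif3f had the smallest p of any member. Its lowest, median and highest levels were 84.9, 88.7 and 93.4 CPM at ZT0 against 106, 130 and 191 CPM at ZT12 (log2 fold change 0.64 ± 0.11, adjusted p = 0.0091). Eif3f and Eif3h encode the pair of MPN-domain subunits of eIF3, and Eif3h had 51.0, 57.2 and 60.1 CPM at ZT0 against 66.3, 76.7 and 105 CPM at ZT12 (0.49 ± 0.10, adjusted p = 0.015). In both genes no ZT12 mouse overlapped a ZT0 mouse.

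The other called eIF3 genes encode PCI-domain subunits. Eif3k, one of the smallest subunits, had 33.8, 39.7 and 43.1 CPM at ZT0 against 48.4, 57.2 and 96.9 CPM at ZT12 (0.68 ± 0.14, adjusted p = 0.020). Eif3m had 48.9, 55.0 and 57.6 CPM and then 64.0, 74.4 and 106 CPM (0.56 ± 0.12, adjusted p = 0.020). Eif3e had 34.3, 41.1 and 44.9 CPM and then 48.9, 53.0 and 59.9 CPM (0.40 ± 0.09, adjusted p = 0.021). None of these 3 groups of ZT12 mice overlapped its ZT0 mice.

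These 5 subunits belong to the PCI/MPN octamer at the core of mammalian eIF3, a grouping made after their values were seen. The other octamer subunits were not called. Eif3a, the large scaffold subunit, had 241, 261 and 269 CPM at ZT0 against 219, 274 and 287 CPM at ZT12 (0.05 ± 0.08), Eif3c had 87.9, 92.7 and 96.8 CPM and then 76.3, 92.2 and 103 CPM (-0.01 ± 0.08), and Eif3l had 52.3, 60.3 and 64.7 CPM and then 57.7, 66.4 and 75.2 CPM (0.15 ± 0.08). In all 3 the times overlapped. Outside the octamer, Eif3b stood at 0.07 ± 0.07, and Eif3g (0.46 ± 0.12, adjusted p = 0.052), Eif3i (0.35 ± 0.10, adjusted p = 0.068) and Eif3d (0.33 ± 0.11, adjusted p = 0.11) did not pass the threshold. Eif3j1 (0.25 ± 0.12) and its near copy Eif3j2 (-0.19 ± 0.25) share most of their sequence, and their counts are uncertain to that extent.

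**Figure D4:**
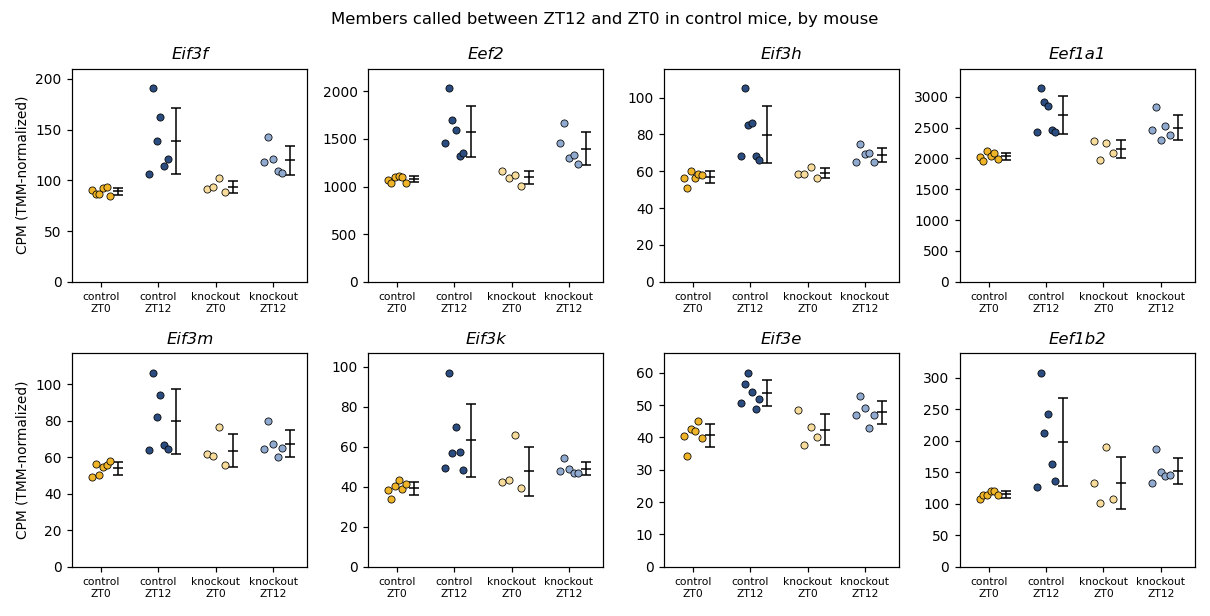
CPM by mouse of the 8 called members, ordered by p, in control and knockout mice at ZT0 and ZT12 (points; bar and whiskers, mean ± SD). In each panel the 6 control ZT12 mice lie above the 6 control ZT0 mice, with the top ZT12 value at 191 CPM for Eif3f and 307 CPM for Eef1b2; in knockout mice the times separate for Eif3f, Eef2, Eif3h and Eef1a1.

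No member of the other roles was called in control mice. Eif1, which keeps the scanning ribosome open until it meets a start codon, was spread widely, with 170, 221 and 251 CPM at ZT0 against 188, 254 and 404 CPM at ZT12 (0.34 ± 0.15, adjusted p = 0.23). Eif5, which makes eIF2 give up its GTP at the start codon, had 285, 290 and 314 CPM and then 312, 347 and 376 CPM (0.23 ± 0.08, adjusted p = 0.125). In both genes the highest ZT0 mouse lay above the lowest ZT12 mouse.

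eIF2 consists of alpha (Eif2s1), beta (Eif2s2) and gamma subunits, and eIF2B is the exchange factor that reloads it and that phosphorylated eIF2 blocks. The 11 members grouped under this role also include Eif2a and Eif2d, which encode subunits of neither complex. At an unadjusted p under 0.05 there were 5 of the 11, all higher at ZT12, where 18.1% of all genes passed in either direction and 9.19% as higher. Eif2s1 had 22.2, 24.2 and 28.4 CPM at ZT0 against 21.6, 29.95 and 32.6 CPM at ZT12 (0.20 ± 0.10, adjusted p = 0.26). Eif2b5, the catalytic subunit of eIF2B, had 28.1, 30.4 and 35.6 CPM and then 34.5, 35.3 and 37.7 CPM (0.21 ± 0.08, adjusted p = 0.14). The times overlapped for both.

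The gamma subunit is encoded by an X-linked gene, Eif2s3x, and a Y-linked one, Eif2s3y. Eif2s3y was at 0 counts in 7 libraries, where 3 counts would be 0.134 to 0.197 CPM, at 40.6 to 67.3 CPM in 11 libraries, and in between in 3. The 3 in between were control ZT12 mouse 5 at 0.218 CPM (3 counts), knockout ZT12 mouse 5 at 1.76 CPM (30 counts) and knockout ZT0 mouse 3 at 10.7 CPM (161 counts). Eif2s3x ranged from 18.6 to 46.7 CPM over all mice, and 22.3 to 46.7 CPM at ZT0 against 18.6 to 42.5 CPM at ZT12 in control mice (-0.21 ± 0.19, adjusted p = 0.61). No difference in Eif2s3y between times could be read from mice that include some with 0 counts in every group.

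**Figure D5:**
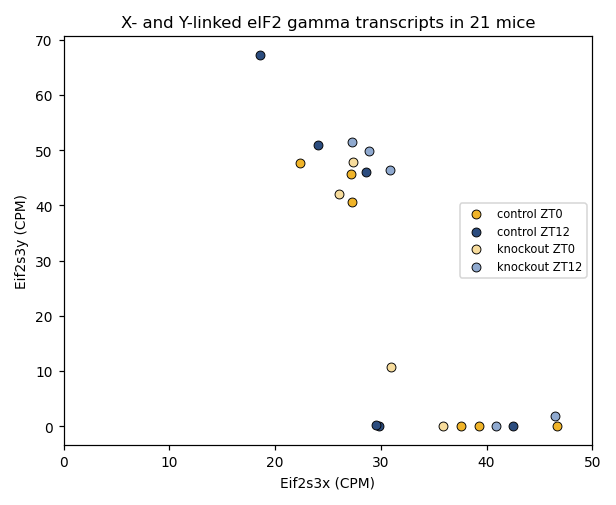
Eif2s3y against Eif2s3x, both in CPM, in the 21 mice coloured by group. Eif2s3y sits at or near 0 or above 40 CPM in all but one mouse, knockout ZT0 mouse 3 at 10.7 CPM, and the mice with the most Eif2s3x (up to 46.7 CPM) hold little or no Eif2s3y.

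The eIF4 genes encode the cap-binding protein eIF4E, the scaffold eIF4G, the helicase eIF4A and its partners eIF4B and eIF4H. None of the 12 was called at ZT12 in control mice. Eif4a1 had 103, 134 and 135 CPM at ZT0 against 122, 149 and 169 CPM at ZT12 (0.21 ± 0.09, adjusted p = 0.23), and Eif4a2 161, 195 and 198 CPM and then 183, 206 and 232 CPM (0.13 ± 0.09, adjusted p = 0.44). Eif4e had 17.2, 21.3 and 23.2 CPM and then 18.6, 19.8 and 22.8 CPM (-0.03 ± 0.09), and Eif4g1 had 235, 246 and 273 CPM and then 194, 249 and 293 CPM (-0.05 ± 0.11). All 4 overlapped between times. A processed copy annotated as noncoding, Eif4a-ps4, held 9368 counts summed over the 21 libraries, where Eif4a1 held 1883 to 2743 counts in each. Reads of Eif4a1 may thus be divided to an extent that is not small, and the ratio of Eif4a2 over Eif4a1 below carries the same limit. The lowest p of a lower member was that of Eif4enif1, the shuttling protein that brings eIF4E into the nucleus, with 65.3, 75.9 and 92.5 CPM and then 54.5, 60.8 and 80.6 CPM (-0.28 ± 0.12, adjusted p = 0.20). Eif4g3 stood at -0.20 ± 0.10 (adjusted p = 0.30). Of the factors that join the subunits, Eif5b stood at -0.01 ± 0.10 and Eif6, which holds the large subunit apart, had 37.2, 39.4 and 44.2 CPM and then 39.3, 48.6 and 61.9 CPM (0.26 ± 0.10, adjusted p = 0.18). Eif5a had -0.13 ± 0.12 in knockout mice and 0.10 ± 0.10 in control mice, neither called.

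Because a ratio of 2 genes within one library hardly depends on how libraries were scaled, 3 ratios were compared between groups with two-sided exact permutation tests over mice, as log2 ratios of CPM + 0.5, in 4 comparisons each. None of the 12 passed an adjusted p of 0.05. Eif4a2 over Eif4a1, the paralogous helicases, had a mean log2 ratio of 0.57 ± 0.07 (SD, n = 6) in control mice and 0.41 ± 0.05 (SD, n = 4) in knockout mice at ZT0. There the knockout mice all lay below the control mice (difference -0.16, exact permutation p = 0.00952, the smallest that 6 against 4 mice can give, adjusted 0.114). The separation was narrow: the highest knockout value, 0.477 in mouse 3 with its mixed library, lay just below the lowest control value, 0.479. At ZT12 the same ratio was 0.49 ± 0.12 (n = 6) and 0.37 ± 0.12 (n = 5), with overlap (difference -0.12, exact permutation p = 0.126, adjusted 0.340). Eif4g3 over Eif4g1 had a difference of -0.15 between ZT12 and ZT0 in control mice (exact permutation p = 0.0346, adjusted 0.208). Eif4ebp1 over Eif4e, the inhibitor over its target, had a difference of 0.54 between times in control mice (exact permutation p = 0.145, adjusted 0.340) and of 0.25 in knockout mice (exact permutation p = 0.198, adjusted 0.340).

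The same time comparison in knockout mice asked whether the transcripts differ when Arntl is deleted in the B cell lineage. No member was called, where 0% of all genes were called. At an unadjusted p under 0.05 there were 10 members, 9 of them higher at ZT12, where 8.01% of all genes passed. The median log2 fold change over the members was 0.06. For 6 members all ZT12 mice lay above all ZT0 mice (Eif3f, Eif3h, Eif4b, Eif4e2, Eef1a1 and Eef2), where this held for 1.22% of all genes. For 1 member, Eif1b, all lay below, where this held for 286 of the 20256 genes, a similar rate. Without the 2 libraries that held Xist and Y-linked RNA together, 7 members passed the unadjusted threshold (12.1%, where 4.73% of all genes did), none was called, and the median was 0.09.

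Among the members called in control mice, Eef2 and Eif3f had the largest values in knockout mice. In knockout mice Eef2 stood at 1161, 1094, 1121 and 1010 CPM at ZT0 and at 1456, 1672, 1296, 1327 and 1234 CPM at ZT12, with no overlap (log2 fold change 0.35 ± 0.12, adjusted p = 0.54). Eif3f stood at 91.0, 93.8, 102 and 88.3 CPM and then at 118, 142, 121, 110 and 107 CPM, also without overlap (0.35 ± 0.13, adjusted p = 0.58). Eef1a1 followed with 2285, 1980, 2254 and 2084 CPM and then 2465, 2828, 2298, 2531 and 2383 CPM (0.22 ± 0.10, adjusted p = 0.61). The lowest ZT12 mouse was only just above the highest ZT0 mouse for Eef1a1.

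Eif3h had 58.6, 58.4, 62.5 and 56.2 CPM at ZT0 against 65.0, 74.5, 69.5, 69.8 and 65.1 CPM at ZT12, with no overlap (0.22 ± 0.11). Eif3e overlapped, with 48.6, 37.6, 43.2 and 40.2 CPM and then 46.8, 52.8, 49.0, 43.0 and 47.0 CPM (0.17 ± 0.10). For the remaining 3 members one library set the ZT0 range. Eif3k had 42.6, 43.3, 65.9 and 39.3 CPM at ZT0 against 47.6, 54.6, 49.0, 47.0 and 46.7 CPM at ZT12 (0.04 ± 0.16), Eif3m 61.6, 60.7, 76.3 and 55.9 CPM and then 64.4, 79.7, 67.0, 60.3 and 64.8 CPM (0.08 ± 0.13), and Eef1b2 133, 101, 190 and 107 CPM and then 133, 186, 150, 143 and 145 CPM (0.19 ± 0.21). In each the third ZT0 value, from a library with both Xist and Y-linked RNA, was the highest of its group. Without that library and knockout ZT12 mouse 5 the log2 fold changes were 0.25 for Eif3k, 0.19 for Eif3m and 0.43 for Eef1b2, none called.

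Other members of low p in knockout mice were Eif4e2, a cap-binding homologue of eIF4E, with 44.6, 42.3, 37.7 and 41.9 CPM and then 51.5, 52.8, 47.9, 48.9 and 46.5 CPM (0.25 ± 0.09, adjusted p = 0.56), and Eif5b (0.32 ± 0.12, adjusted p = 0.57). Eif1b was the lower one, with 14.3, 14.2, 15.1 and 13.4 CPM and then 12.1, 12.6, 11.8, 9.27 and 11.2 CPM (-0.32 ± 0.15, adjusted p = 0.61). Eef1akmt2, which encodes a lysine methyltransferase of eEF1A, had 3.96, 2.55, 5.6 and 2.88 CPM and then 2.22, 2.92, 2.96, 2.32 and 2.64 CPM (-0.52 ± 0.26, adjusted p = 0.61), and 0.11 ± 0.22 in control mice. Eif4b stood at 0.26 ± 0.09 in control mice and 0.27 ± 0.10 in knockout mice, and Eif2b4 at 0.29 ± 0.09 and 0.29 ± 0.11, with none of these called.

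Whether the time change itself differed between genotypes was tested as an interaction. No member was called, where 0% of all genes were. At an unadjusted p under 0.05 there were 13 members, 12 with a smaller or opposite time change in knockout mice, where 10.8% of all genes passed. The smallest adjusted p of a member was 0.442. Eif3k (-0.65 ± 0.22), Eif3m (-0.48 ± 0.18) and Eef1d (-0.51 ± 0.20) had the smallest p in this direction, and each was highest, within knockout mice at ZT0, in mouse 3. Without the 2 libraries with mixed X and Y transcripts, 4 members passed the unadjusted threshold (6.90%, near the 5.15% of all genes), and Eif3k stood at -0.44. With the Ig share as a covariate 1 member did (1.72%, against 3.44% of all genes). For 3 of the members with the firmest calls in control mice the difference was under 2 SEs from 0, at -0.19 ± 0.13 for Eef1a1, -0.20 ± 0.15 for Eef2 and -0.29 ± 0.17 for Eif3f. A call in control mice and none in knockout mice is therefore not shown to be a difference between the genotypes for any member.

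Between genotypes at one time, no member was called. At ZT0, where 0.00987% of all genes were called, 2 members had an unadjusted p under 0.05 (4.9% of all genes did). They were Eif2b5, higher in knockout mice (36.0, 35.7, 33.6 and 34.2 CPM against a control range of 28.1 to 35.6, 0.18 ± 0.08), and Eif3j2, lower (4.29, 5.48, 4.00 and 4.42 CPM against 3.82 to 10.2, -0.66 ± 0.28), both overlapping and both with an adjusted p of 0.93. At ZT12, where 0.0148% of all genes were called, 9 members had an unadjusted p under 0.05, 8 of them lower in knockout mice (8.83% of all genes passed). The smallest p belonged to Eif3i (-0.27 ± 0.10), Eif3k (-0.37 ± 0.15) and Eef1d (-0.33 ± 0.13), and Eif4g1 was the higher one (0.25 ± 0.11), all with an adjusted p of 0.56. Eif4g1 had 271, 276, 284, 302 and 303 CPM in knockout mice against 194 to 293 CPM in control mice, with overlap. Without the 2 mixed libraries the counts at an unadjusted p under 0.05 were 1 at ZT0, where 2.39% of all genes passed, and 8 at ZT12, where 8.98% did. DESeq2 called no member in either genotype comparison, in the time comparison of knockout mice or in the interaction. The control ZT12 mice serve in both the time comparison and this one, so the values are set side by side and are not independent.

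Log2 fold changes were also set against gene length. Across the 58 members the Spearman correlation of log2 fold change with length was -0.26 for time in control mice, 0.17 for time in knockout mice and 0.44 for the interaction, and across 6936 genes with a mean log2 CPM over 3 outside Ig genes it was -0.43, 0.16 and 0.45. Genes of one library share its RNA and its base composition, so these are descriptions without a test. The 8 called members had a median length of 2644 bases (1612 to 6719) and the other 50 a median of 3986.5 bases (947 to 11063). With each library's trend on length removed, 10 members were called, including the 8, and 1.58% of all genes.

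Genes that act on these factors, or elsewhere in translation, were listed by function, with 66 of 67 listed genes tested. In control mice 2 of them (3.03%) were called, both higher at ZT12. Tpt1, the translationally controlled tumour protein, had 597 to 776 CPM at ZT0 and 765 to 1778 CPM at ZT12 (0.70 ± 0.16, adjusted p = 0.031). Rps6, the ribosomal protein phosphorylated by S6 kinase, had 222 to 255 and 276 to 576 CPM (0.72 ± 0.15, adjusted p = 0.021). It is also counted among the ribosomal protein genes above. None was called in the other 4 comparisons. The median log2 fold change over the 66 genes in control mice was 0.01, with 7 higher and 4 lower at an unadjusted p under 0.05, which is 16.7% of the list and near the 18.1% of all genes.

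The translational repressors and eIF2 kinases, left out of the members by name, had no called gene. At an unadjusted p under 0.05, 3 of these 7 passed for time in control mice (42.9%, against 18.1% of all genes) and 0 in knockout mice. In the interaction 5 passed (71.4%, against 10.8% of all genes). Between genotypes 0 passed at ZT0 and 3 at ZT12 (42.9%, against 8.83% of all genes). Eif4ebp1 had 4.66 to 13.0 CPM at ZT0 and 8.57 to 26.3 CPM at ZT12 in control mice (0.57 ± 0.27, adjusted p = 0.26), Eif4ebp2 99.4 to 127 and 75.2 to 124 CPM (-0.22 ± 0.12, adjusted p = 0.31), and Eif4ebp3 0.119 to 0.707 and 0.063 to 1.88 CPM (1.19 ± 0.61, adjusted p = 0.30). Of the kinases, Eif2ak4 (GCN2, which senses uncharged tRNA) had 11.8 to 15.7 CPM at ZT0 and 9.30 to 11.3 CPM at ZT12, all lower (-0.44 ± 0.12, adjusted p = 0.061), and Eif2ak2 (PKR, which senses double-stranded RNA) 13.2 to 18.3 and 6.99 to 13.3 CPM (-0.52 ± 0.15, adjusted p = 0.078). Eif2ak3 (PERK, the kinase of the unfolded protein response) was the most abundant kinase, at 307 to 460 and 275 to 419 CPM (-0.19 ± 0.12, adjusted p = 0.43), and Eif2ak1 lay at -0.13 ± 0.12. Poly(A)-binding proteins and their partners (7 genes), termination and rescue factors (8), the genes for the modification of eIF5A and eEF2 together with the selenocysteine factors Eefsec and Secisbp2 (11 in all) and the mitochondrial translation factors (10 tested) also had none in any comparison.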

How the data were processed

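Poly(A) RNA of sorted CD138+ IgA+ PCs was sequenced in 21 libraries, 1 per mouse. The authors deposited whole-number read counts per gene in one table, not normalized. The aligner, counter, strand setting and build are not given in the sources used here; the submitters' processing notes name DESeq2. Start, end and length in the table equal those of GENCODE M21 (GRCm38) for 53 and 52 of the 58 members. Genes were kept from a summed count of 10 upward. Counts were scaled by TMM and fitted with edgeR 4.0.16 (robust quasi-likelihood, R 4.3.3) as 4 group means, so that all groups share one estimate of the spread, with Benjamini-Hochberg adjustment over all 20256 genes and a threshold of 0.05. SE is the absolute log2 fold change divided by the square root of F. The fit was tested on simulated data. No 2 libraries of a group were duplicates. DESeq2 1.42.0, other scalings, filters, covariates and libraries left out were tried as alternatives. The time comparison, its difference between genotypes and the genotype comparison at each time were made. The members and gene lists were chosen with earlier results of these data known. Named members were those called, the 3 of lowest p in each direction of each comparison, the 5 of highest level per length and a list of subunits of each role; Eif3a, Eif3b, Eif3c, Eif3d, Eif3g, Eif3l, Eif3j1, Eif4b, Eif2b4 and Eif5 lie outside this rule and were chosen after their values were seen. Reads of near copies (Eef1a1, Eif3j1 with Eif3j2, Eif2s3x with Eif2s3y, Eif1 with Eif1b) may be divided between them, and at these depths counting error is small beside the spread between mice for all but the lowest members.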

Additional observations from a re-analysis of the deposited data

Results flagged for a closer look

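In groups of 4 to 6 mice, 144 values (the named members, 3 log2 ratios and the summed share, by group) were tested for a mouse standing apart from the rest of its group, and 9 did; chance gives about 1 in 20. Control ZT0 mouse 2 had the lowest Eif4a1 (103 CPM, the nearest mouse at 123) and the lowest Eif4a2 (161 CPM, nearest 186). Control ZT12 mouse 3 had the lowest log2 ratio of Eif4a2 over Eif4a1 (0.27, nearest 0.47).

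Knockout ZT0 mouse 3, whose library held both Xist and Y-linked RNA, had the highest Eif3i (62.0 CPM, nearest 51.5), Eif3k (65.9 CPM, nearest 43.3) and Eef1d (79.2 CPM, nearest 57.2). The time changes of these genes in knockout mice, and their interactions, rest in part on that library. Knockout ZT12 mouse 2 had the highest Eef1g (235 CPM, nearest 193), the lowest Eef2k (10.8 CPM, nearest 15.5) and the highest summed share of the 58 members (1.96% of counts outside Ig genes, nearest 1.82%).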

How the results depend on the processing

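The 8 members called at ZT12 in control mice (1.73% of all genes) were 17 with DESeq2 (8.5%), 3 when libraries were scaled by size only (2.2%), 1 with only the control mice in the fit (0.203%), 1 (Eif3f) at an adjusted p under 0.01 and 0 with the Ig share as a covariate (0%; 10 at an unadjusted p under 0.05). Leaving out 1 library at a time gave 2 to 11, beside 31 to 944 calls over all genes: 2 without control ZT0 mouse 2 or control ZT12 mouse 4, 3 without control ZT0 mouse 1 and 11 without control ZT12 mouse 1 or mouse 6. Eef2 and Eif3f were called in all 21 of these fits. The count was 8 to 10 under DESeq2's size factors, the low-count filters, removal of Ig genes, Xist as a covariate, the length trend removed and without the 2 mixed libraries (chosen after seeing the data), each including all 8. No member was called in the other 4 comparisons under any alternative.

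Replicate numbers are shared between groups, and whether they pair the mice was not settled. Over 28 pairs of the same number the correlation of deviations from group means ran from -0.41 to 0.41 with a median of -0.04, and 10 were over 0.1. Over 136 pairs of different numbers it ran from -0.73 to 0.69 with a median of -0.0020, and 42 were over 0.1. Spreads this wide can neither show nor exclude a pairing. With the number as a replicate block 7 members were called, Eef1b2 being lost (adjusted p = 0.052).

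Scaling by library size moved the median of all genes to -0.20 and that of the members to -0.06, with 8 members higher and 5 lower at an unadjusted p under 0.05, against 25 and 1. These 13 are 22.4% of the members, and 22.8% of all genes passed. The control time change then reversed for Eif2s1 (-0.012), Eif4a1 (-0.0068), Eif4a2 (-0.092), Eif4e2 (-0.075), Eef1akmt2 (-0.11), Eef1e1 (-0.0090), Eif1b (-0.060) and Eif5a (-0.13), and the interaction for Eef1a1 (0.0011). With the Ig share as a covariate it reversed for Eif4a2 (-0.0061), Eif4g1 (0.18), Eif4g3 (0.047), Eef1akmt2 (-0.18), Eef1d (-0.040), Eef1e1 (-0.039), Eif1 (-0.096), Eif1b (-0.030), Eif5a (-0.10) and Eif5b (0.070). With the length trend removed it did so for Eif4e (0.054), Eif4g1 (0.047), Eef1akmt2 (-0.049), Eif1b (-0.075), Eif5a (-0.0096) and Eif5b (0.14). Eif5b also turned with DESeq2 (0.017), its size factors (0.016) and filterByExpr (0.0058). Without the 2 mixed libraries the log2 ratio of Eif4a2 over Eif4a1 differed by 0.0064 between times in knockout mice. Over all 21 mice, the summed share of control ZT0 mice over the mean of all mice was 0.911 of counts outside Ig genes and 0.958 of all counts. None of these reversed values was called and the cause was not tested.

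Leaving out 1 library, values that changed sign ran from -0.20 to 0.67 for Eif2s3y, -0.079 to 0.0014 for Eif4e, -0.11 to 0.0072 for Eif4g1, -0.00021 to 0.22 for Eef1akmt2, -0.0043 to 0.15 for Eif5a and -0.054 to 0.039 for Eif5b in control mice, from -0.059 to 0.23 for Eif3k in knockout mice, from -0.11 to 0.084 for the ratio of Eif4g3 over Eif4g1 between genotypes at ZT0 and from -0.030 to 0.26 for that of Eif4ebp1 over Eif4e at ZT12. Other named values under 1 library left out kept direction and call in 1404 fits and lost the call in 24. At 109529 to 179818 counts on the members per library the depth limits mainly the lowest, such as Eef1akmt4 (3 to 32 counts per library) and Eif5a2 (4 to 48).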
